A study of Mus musculus with 5 samples.

Results

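The ferritin and oxidative stress response genes described here are 10 mouse genes: the ferritin subunit genes Ftl1 and Fth1, the heme oxygenase gene Hmox1, the quinone reductase gene Nqo1, the glutathione and thioredoxin system genes Gclm, Txnrd1, Prdx1 and Srxn1, and the metallothionein genes Mt1 and Mt2. They were chosen by gene symbol in the platform's probe-to-gene table, with the difference of Ftl1 from both control immunoprecipitations already known, so their values are descriptions. All 10 were measured, through 11 probe sets paired with 1 gene symbol, out of 19937 genes and 34760 probe sets. Another 3 probe sets were paired with Ftl1 and 2 microRNA genes together.

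RNA associated with a FLAG-tagged MKRN1 protein was recovered by immunoprecipitation (RIP) and measured on 5 Affymetrix arrays. MKRN1 is a makorin, a RING-domain protein with zinc fingers. All samples came from R1 mouse embryonic stem cell clones resistant to G418, expanded without feeders in medium with LIF and serum after a passage on mouse embryonic fibroblasts. The pCAGGS construct of the FLAG:MKRN1 cells expressed a FLAG:MKRN1 fusion protein constitutively, and that of the FLAG:Ctrl cells carried the FLAG tag without MKRN1. The 5 groups, each of 1 array, were RNA pulled down with anti-FLAG beads from FLAG:MKRN1 cells (called the MKRN1 RIP below), RNA pulled down with the same antibody from FLAG:Ctrl cells (the FLAG:Ctrl RIP), RNA pulled down with IgG beads from FLAG:MKRN1 cells (the IgG RIP), and the FLAG:MKRN1 and FLAG:Ctrl inputs, which are total RNA set aside before the immunoprecipitation. A constitutively expressed, tagged protein in clonal lines limits these groups as a model, and there were no replicates, so no test was run and no difference can be set against a replicate error.

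Ferritin is a shell of light (Ftl1) and heavy (Fth1) chains that stores iron. Its messenger RNAs carry an iron-responsive element near their 5′ end, a stem-loop to which iron regulatory proteins bind when iron is scarce, which holds back translation. In an oxidative stress response the transcription factor NRF2, released from KEAP1, binds antioxidant response elements and raises ferritin, heme oxygenase, quinone reductase, glutathione synthesis and thioredoxin system genes. Metallothioneins are small cysteine-rich proteins that bind zinc and copper, and their genes are driven by MTF1 through metal response elements.

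Sequences are shown for the 4 members on which the values below turn: Ftl1, the member at least 2-fold higher in the MKRN1 RIP than in both control RIPs, Mt1, just short of 2-fold against the FLAG:Ctrl RIP, its neighbour Mt2, and Srxn1, the member with its lowest value in the MKRN1 RIP. They are RefSeq promoter windows on GRCm38.p6, from 250 bases before to 50 after the gene's start, written 5′ to 3′ on the gene's strand. Capitals mark the antioxidant response element core (TGACNNNGC or TGAGNNNGC, either strand) in the Srxn1 window and the metal response element core (TGCACNC or TGCGCNC, either strand) in the Mt1 and Mt2 windows. The Mt2 window also holds an antioxidant core and the Srxn1 window a metal response core, left in lower case. No letters of the Ftl1 window matched either core.
Ftl1 promoter, chr7:45459837-45460136, strand -: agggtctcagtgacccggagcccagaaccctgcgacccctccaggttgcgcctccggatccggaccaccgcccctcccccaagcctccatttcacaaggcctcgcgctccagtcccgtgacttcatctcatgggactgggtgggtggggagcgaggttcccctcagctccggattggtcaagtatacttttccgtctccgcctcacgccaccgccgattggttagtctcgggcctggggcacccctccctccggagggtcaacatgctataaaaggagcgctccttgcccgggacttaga
Mt1 promoter, chr8:94178839-94179138, strand +: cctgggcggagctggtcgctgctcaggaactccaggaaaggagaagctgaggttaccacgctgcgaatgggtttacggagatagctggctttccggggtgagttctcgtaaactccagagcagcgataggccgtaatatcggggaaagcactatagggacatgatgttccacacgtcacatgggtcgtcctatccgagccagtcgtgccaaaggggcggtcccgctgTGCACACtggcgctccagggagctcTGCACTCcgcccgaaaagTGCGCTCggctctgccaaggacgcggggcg
Mt2 promoter, chr8:94172368-94172667, strand +: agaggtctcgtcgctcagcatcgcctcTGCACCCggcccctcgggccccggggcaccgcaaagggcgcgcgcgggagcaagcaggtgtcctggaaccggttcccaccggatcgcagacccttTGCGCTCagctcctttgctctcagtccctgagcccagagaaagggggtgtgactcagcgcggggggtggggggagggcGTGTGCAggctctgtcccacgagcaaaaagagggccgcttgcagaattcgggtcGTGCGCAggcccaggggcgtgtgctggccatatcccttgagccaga
Srxn1 promoter, chr2:152105274-152105573, strand +: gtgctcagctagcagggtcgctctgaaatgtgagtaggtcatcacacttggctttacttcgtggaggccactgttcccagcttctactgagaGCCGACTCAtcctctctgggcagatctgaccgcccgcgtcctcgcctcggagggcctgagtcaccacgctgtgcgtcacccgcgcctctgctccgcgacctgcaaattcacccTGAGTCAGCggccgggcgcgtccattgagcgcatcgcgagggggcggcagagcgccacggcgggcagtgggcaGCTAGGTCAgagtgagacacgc

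Promoter windows were matched for 9 of the 10 members. These genes had 12 windows, since a gene can have several starts. The antioxidant core was in 5 of the 12 (41.7%), 1 window each of Gclm, Txnrd1, Prdx1, Srxn1 and Mt2, and in 27.8% of the 32851 windows of the table. Srxn1 had 3 matches, a number reached by 0.63% of windows. The metal response core was in 4 of the 12 (33.3%), 1 window each of Gclm, Srxn1, Mt1 and Mt2, and in 25.7% of all windows. Mt2 had 4 matches, a number reached by 0.517% of windows, and Mt1 and Gclm had 3 each, reached by 1.97%. In the Gclm window a match to one core overlapped a match to the other. These matches are letters in a window and do not show that a factor bound there, and the arrays measured RNA recovered with a protein, not transcription.

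The 3 probe sets that Ftl1 shares were paired in the platform annotation with Mir692-2 and Mir692-3, whose mature product is shown because of that pairing. Whether those probe sets measure it was not tested. Capitals mark its seed, bases 2 to 8, and the sequence and position are those of RefSeq for Mir692-2 on GRCm38.p6.
mmu-miR-692, chr4:125504805-125504825, strand +: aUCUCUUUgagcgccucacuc
In the RefSeq table Mir692-2 lies within the ferritin light chain pseudogene Ftl2-ps. That table also lists the pseudogenes Ftl1-ps1 and Ftl1-ps2, and no probe set was paired with any of the 3 pseudogenes alone. Signal from Ftl1 may therefore not be separate from that of these copies.

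Values are log2 signals as the authors deposited them, and each difference is a log2 difference between arrays for the same probe set. A gene was called higher or lower at 2-fold, a log2 difference of 1. Levels of different genes are not compared, since each probe set has its own response. A gene was kept where its mean over the 5 arrays was at least 5.76, the median over all probe sets, and all 10 members were among the 11502 kept genes. Array medians lay between 5.68 and 5.88. Over the kept genes, the differences between the MKRN1 RIP and the FLAG:Ctrl and IgG RIPs had SDs of 0.571 and 0.550, and the difference between the FLAG:Ctrl RIP and the IgG RIP an SD of 0.243, so the control RIPs were closer to each other than to the MKRN1 RIP. Mkrn1 itself did not set the lines apart: it had 11.90 in the MKRN1 RIP, 12.20 in the FLAG:Ctrl RIP, 11.99 in the IgG RIP, 11.71 in the input of FLAG:MKRN1 cells and 11.80 in that of FLAG:Ctrl cells. The directions given below therefore rest on the labels. All 8 embryonic stem cell markers passed the filter, with median levels between 10.7 and 11.0 on the 5 arrays. All 8 were lower in the MKRN1 RIP than in the FLAG:Ctrl RIP (median -0.33), as were 52.3% of kept genes. This count ran from 5 to 8 under the 4 rescalings. Against the IgG RIP 6 were lower and 2 higher (median -0.19), where 50.1% of kept genes were lower. After quantile normalization 3 were lower and 5 higher than in the IgG RIP (median 0.06). Klf4 differed most from the FLAG:Ctrl RIP, by -1.56, and was also lower in the FLAG:MKRN1 input than in the FLAG:Ctrl input, by -1.17. Of 10 fibroblast markers 5 passed the level filter (Col1a1, Col1a2, Col3a1, Thy1 and S100a4). Their summed log2 level was 35.7 in the MKRN1 RIP, 34.9 in the FLAG:Ctrl RIP and 35.2 in the IgG RIP. It was 34.8 in the input of FLAG:MKRN1 cells and 35.3 in that of FLAG:Ctrl cells. The others (Postn, Dcn, Lum, Pdgfrb and Fbln2) did not pass the filter. Single markers went opposite ways, with input differences, FLAG:MKRN1 less FLAG:Ctrl, of -0.99 for Thy1 and 0.72 for S100a4. Of the 5, 4 were higher in the MKRN1 RIP than in the FLAG:Ctrl RIP, as were 39.9% of kept genes, and S100a4 was equal. After centring on all probe sets 2 were higher and 3 lower. Against the IgG RIP 4 were higher, by up to 0.69 (Thy1), as were 41.2% of kept genes. S100a4 was lower there, at -0.79. The part of feeder RNA, or of these marker differences, in the members' values was not tested. Between the bulk FLAG:MKRN1 and FLAG:Ctrl lysates, fewer cells of a type and less RNA per cell cannot be told apart. The MKRN1 RIP and the IgG RIP both came from FLAG:MKRN1 lysate, and the cause of the marker differences between them was not tested.

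Of the 10 members, Ftl1 was the 1 called higher in the MKRN1 RIP than in both control RIPs and above its own input. By the probe set paired with Ftl1 alone, Ftl1 had 10.54 in the MKRN1 RIP, against 9.00 in the FLAG:Ctrl RIP and 9.05 in the IgG RIP. It had 9.84 in the input of FLAG:MKRN1 cells and 9.60 in that of FLAG:Ctrl cells. The MKRN1 RIP was thus the highest of the 5 arrays for this probe set, both inputs lay in the middle, and both control RIPs lay below both inputs. The difference was 1.54 against the FLAG:Ctrl RIP (2.91-fold) and 1.49 against the IgG RIP (2.81-fold). In the probe sets that Ftl1 shares it was smaller and short of 2-fold, as given below. These comparisons share the MKRN1 RIP array and are not independent. Against its own input the MKRN1 RIP was higher by 0.70, short of 2-fold. From the top of the 11502 kept genes, Ftl1 ranked 49 against the FLAG:Ctrl RIP, 47 against the IgG RIP and 748 against the input. The inputs differed by 0.24, FLAG:MKRN1 above FLAG:Ctrl, and with each RIP taken less its own input the difference between the MKRN1 and FLAG:Ctrl RIPs was 1.30.

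The size of the Ftl1 difference depended on the probe set. The values above come from the probe set paired with Ftl1 alone. Where in the genome its probes lie was not tested, so it may measure a copy of the gene. Shared set 1 had 6.76 in the MKRN1 RIP, 6.12 in the FLAG:Ctrl RIP, 6.49 in the IgG RIP, 6.73 in the input of FLAG:MKRN1 cells and 6.56 in that of FLAG:Ctrl cells. Shared set 2 had 12.73 in the MKRN1 RIP, 11.93 in the FLAG:Ctrl RIP, 12.12 in the IgG RIP, 12.39 in the input of FLAG:MKRN1 cells and 12.30 in that of FLAG:Ctrl cells. Shared set 3 had 13.11 in the MKRN1 RIP, 12.67 in the FLAG:Ctrl RIP, 12.68 in the IgG RIP, 13.00 in the input of FLAG:MKRN1 cells and 12.95 in that of FLAG:Ctrl cells. In all 4 probe sets the MKRN1 RIP was the highest array and both control RIPs lay below both inputs. The differences of the shared sets were smaller, at 0.63, 0.80 and 0.44 relative to the FLAG:Ctrl RIP and 0.26, 0.61 and 0.44 relative to the IgG RIP, and none reached 2-fold. Taken as the median of the 4 probe sets, each centred on its own mean, Ftl1 was 0.72 above the FLAG:Ctrl RIP and 0.52 above the IgG RIP, and the 2-fold call was lost. All 11 accessions that the platform annotation gives for the Ftl1 probe set were also given for shared sets 2 and 3, and 1 of them for shared set 1.

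Fth1, the heavy chain with the ferroxidase site, had a like pattern with a smaller spread. It had 12.76 in the MKRN1 RIP, against 12.35 in the FLAG:Ctrl RIP and 12.30 in the IgG RIP, with 12.54 in the input of FLAG:MKRN1 cells and 12.68 in that of FLAG:Ctrl cells. The MKRN1 RIP was the highest array and both control RIPs were below both inputs. The MKRN1 RIP was 0.41 above the FLAG:Ctrl RIP, 0.46 above the IgG RIP and 0.22 above its input, none of them a 2-fold difference. RefSeq lists ferritin heavy chain copies too (Fth-ps2 and Fth-ps3 among them), from which this signal may not be separate.

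**Figure D1:**
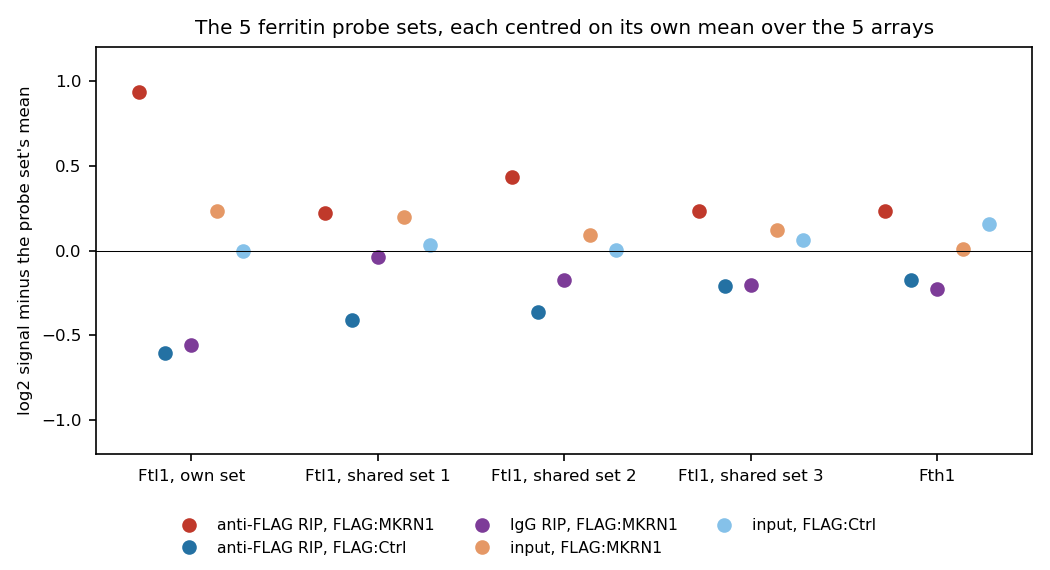
Log2 signal of the 5 ferritin probe sets on the 5 arrays, each probe set centred on its own mean over the arrays; each point is 1 array. The MKRN1 RIP is the highest point in every probe set and both control RIPs lie below both inputs, with the widest spread (1.54) in the probe set paired with Ftl1 alone.

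Hmox1 encodes the inducible heme oxygenase, which releases iron from heme. It had 9.10 in the MKRN1 RIP, 8.32 in the FLAG:Ctrl RIP, 8.54 in the IgG RIP, 8.90 in the input of FLAG:MKRN1 cells and 8.54 in that of FLAG:Ctrl cells. The MKRN1 RIP was again the highest array, by 0.78 over the FLAG:Ctrl RIP, 0.56 over the IgG RIP and 0.20 over its input. The FLAG:MKRN1 input was itself 0.36 above the FLAG:Ctrl input, and with the inputs taken off the difference between the MKRN1 and FLAG:Ctrl RIPs was 0.43. Hmox1 reached 2-fold against the FLAG:Ctrl RIP after quantile normalization, at 1.03, and with the trend on signal level removed, at 1.06.

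Nqo1, which reduces quinones by a route that avoids radical intermediates, was near the level filter. It had 5.93 in the MKRN1 RIP, 6.23 in the FLAG:Ctrl RIP, 6.19 in the IgG RIP, 5.86 in the input of FLAG:MKRN1 cells and 6.19 in that of FLAG:Ctrl cells. Both arrays at the low end, the MKRN1 RIP and the FLAG:MKRN1 input, came from FLAG:MKRN1 lysate, while the IgG RIP of that lysate did not share the low value. The MKRN1 RIP was 0.30 and 0.26 below the FLAG:Ctrl and IgG RIPs, and its difference from the input, 0.07, changed sign when the arrays were centred on the median of all probe sets, quantile normalized or freed of the trend with signal level.

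The 4 glutathione and thioredoxin system genes differed in direction, and none reached 2-fold. Gclm, the modifier subunit of the enzyme that starts glutathione synthesis, had 7.96 in the MKRN1 RIP, 8.18 in the FLAG:Ctrl RIP, 8.56 in the IgG RIP, 8.18 in the input of FLAG:MKRN1 cells and 7.93 in that of FLAG:Ctrl cells. Its MKRN1 RIP value was 0.22 below the FLAG:Ctrl RIP and 0.60 below the IgG RIP, and close to the lowest array. Srxn1, sulfiredoxin, which repairs over-oxidised peroxiredoxins, had 6.94 in the MKRN1 RIP, 7.87 in the FLAG:Ctrl input, and the same value, 7.63, on the other 3 arrays. The MKRN1 RIP was the lowest array for Srxn1, by 0.69 below the FLAG:Ctrl RIP, the IgG RIP and its own input alike, the lowest difference among the members but short of 2-fold.

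Txnrd1, the cytosolic thioredoxin reductase, had 8.98 in the MKRN1 RIP, 9.20 in the FLAG:Ctrl RIP, 9.06 in the IgG RIP, 8.79 in the input of FLAG:MKRN1 cells and 9.05 in that of FLAG:Ctrl cells. Prdx1, a peroxiredoxin that breaks down hydrogen peroxide, had 11.99 in the MKRN1 RIP, 11.84 in the FLAG:Ctrl RIP, 12.01 in the IgG RIP, 11.86 in the input of FLAG:MKRN1 cells and 11.76 in that of FLAG:Ctrl cells. The range over the 5 arrays was 0.40 for Txnrd1 and 0.25 for Prdx1, and the MKRN1 RIP was inside the range of the others. The differences of the MKRN1 RIP from the FLAG:Ctrl and IgG RIPs were -0.22 and -0.08 for Txnrd1 and 0.15 and -0.01 for Prdx1, and each changed sign under at least 1 rescaling. A second Prdx1 probe set gave -0.08 relative to the FLAG:Ctrl RIP and -0.16 relative to the IgG RIP.

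Both metallothionein members were highest in the MKRN1 RIP. Mt1 had 12.18 in the MKRN1 RIP, against 11.18 in the FLAG:Ctrl RIP and 11.48 in the IgG RIP, with 11.50 in the input of FLAG:MKRN1 cells and 11.27 in that of FLAG:Ctrl cells. The other 4 arrays lay close together, so that only the MKRN1 RIP stood apart for this gene. Mt1 was 1.9996-fold above the FLAG:Ctrl RIP, which made it the first kept gene below the 2-fold threshold (rank 187). On the log2 scale it was 0.70 above the IgG RIP and 0.69 above its input. Ftl1, at 2.91-fold, was the one member past this threshold, and Mt1 passed it, at a log2 difference of 1.13, after quantile normalization. Mt2 had 12.59 in the MKRN1 RIP, 12.20 in the FLAG:Ctrl RIP, 12.45 in the IgG RIP, 12.20 in the input of FLAG:MKRN1 cells and 12.02 in that of FLAG:Ctrl cells. Its difference from the FLAG:Ctrl RIP and from its own input was 0.39, and that from the IgG RIP, 0.14, turned to -0.04 when the arrays were centred on the median of all probe sets.

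In RefSeq the metallothionein genes lie on chromosome 8 in the order Mt4, Mt3, Mt2, Mt1, and the other members of this cluster were also highest in the MKRN1 RIP. Mt4 had 7.07 in the MKRN1 RIP, 6.16 in the FLAG:Ctrl RIP, 6.49 in the IgG RIP, 6.52 in the input of FLAG:MKRN1 cells and 6.26 in that of FLAG:Ctrl cells. Mt3 had 7.26 in the MKRN1 RIP, 6.76 in the IgG RIP, and the same value, 6.78, in the FLAG:Ctrl RIP and both inputs. Against the FLAG:Ctrl and IgG RIPs Mt4 was higher by 0.91 and 0.58 and Mt3 by 0.48 and 0.50, with the same sign under the 4 rescalings. Mt4 is known from stratified epithelia and Mt3 from brain.

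**Figure D2:**
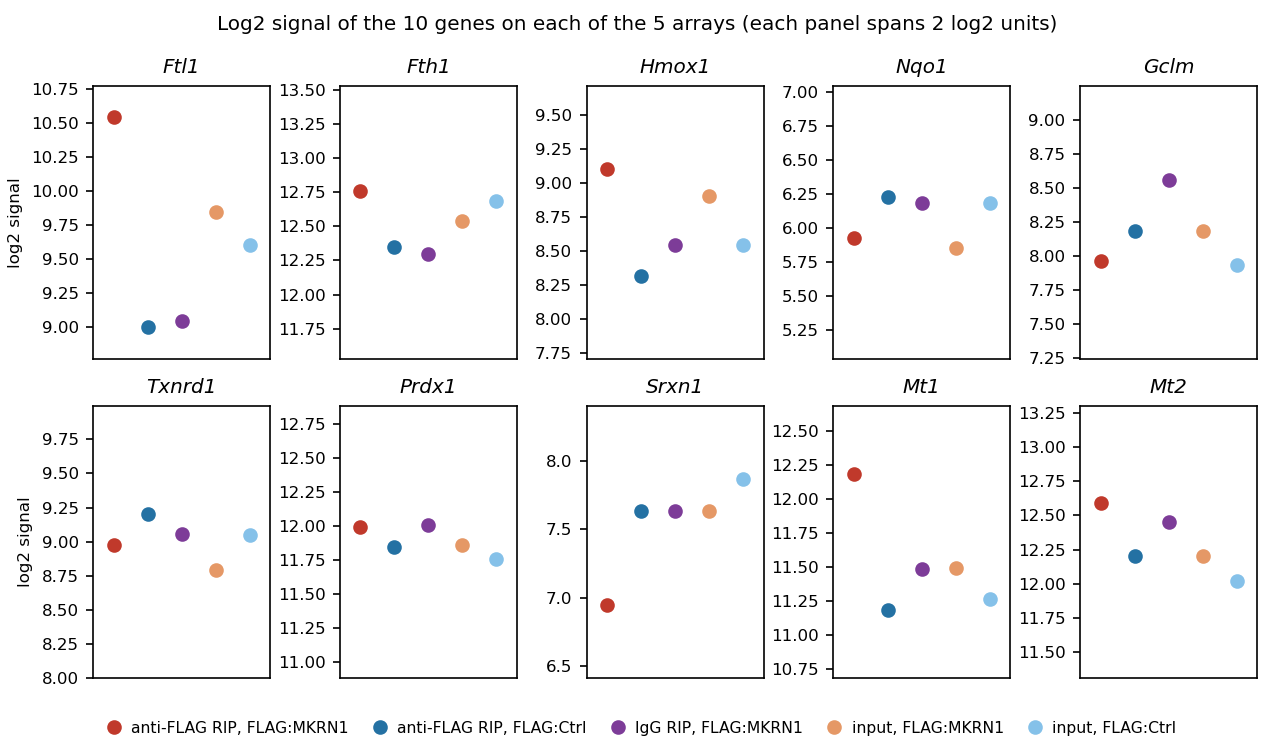
Log2 signal of the 10 genes on each of the 5 arrays, 1 point per array and 1 panel per gene, every panel spanning 2 log2 units. Ftl1 and Mt1 have a MKRN1 RIP point well above the other arrays (10.54 and 12.18), Srxn1 has one below them (6.94), and Nqo1, Txnrd1 and Prdx1 have it within or near the range of the others.

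Against the background of all kept genes, 1 member (Ftl1) was called higher than the FLAG:Ctrl RIP, where 1.62% of the 11502 kept genes were, and none was called lower, where 7.11% were. Against the IgG RIP the members' count was again 1 higher (1.53% of kept genes) and 0 lower (6.94%). By the rule that asks for both control RIPs and the input, 1 of the 10 was higher, against 1.09% of kept genes, and 0 were lower, against 5.36%. With each RIP taken less its own input, 1 was higher than in the FLAG:Ctrl RIP (2.5%) and 0 lower (8.09%). Since Ftl1 was known to pass when the members were chosen, nothing is read from these counts. Calls among all kept genes ran to the lower side, 18.5% of those against the FLAG:Ctrl RIP being higher, and this share was 7.49% after centring on all probe sets, 36.6% after centring on the kept genes, 32.3% after quantile normalization and 36% with the trend on signal level removed. Against the IgG RIP the share was 18.1%, and 7.44%, 31.8%, 31.1% and 32% under the same 4 rescalings. By the rule on both control RIPs it was 16.8%, and 6.2%, 31.9%, 30.6% and 32.8%. For the FLAG:Ctrl RIP comparison the median of all kept genes was -0.03 as deposited, -0.23 after centring on all probe sets and 0.14 after centring on the kept genes.

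The members' median difference was 0.27 against the FLAG:Ctrl RIP, beside -0.03 over all kept genes. Against the IgG RIP it was 0.06, beside -0.00. Against the own input it was 0.19, beside 0.00. The members spread widely about these medians, between -0.69 (Srxn1) and 1.54 (Ftl1) against the FLAG:Ctrl RIP, and 6 of the 10 lay above 0 there, as did 39.9% of kept genes. Against the IgG RIP 5 of the 10 lay below 0, as did 50.1% of kept genes.

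**Figure D3:**
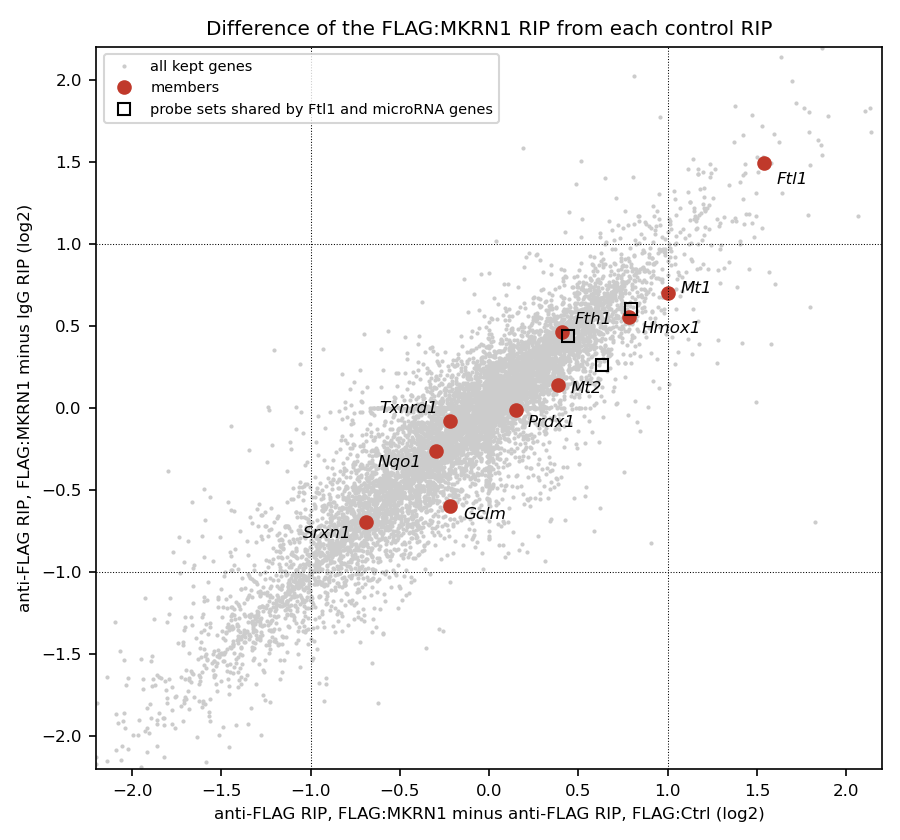
Log2 difference of the MKRN1 RIP from the FLAG:Ctrl RIP (horizontal) and from the IgG RIP (vertical), for the members (red), the 3 probe sets shared by Ftl1 and microRNA genes (open squares) and all kept genes (grey); dotted lines mark 2-fold. Ftl1 lies beyond both lines at 1.54 and 1.49, Mt1 on the vertical line, and the shared probe sets inside both; the axes share the MKRN1 RIP array, and 47 kept genes lie beyond the axes.

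Ordered by array, 5 of the 10 members (Ftl1, Fth1, Hmox1, Mt1 and Mt2) had their highest value in the MKRN1 RIP, as did 32.7% of kept genes, and 1 (Srxn1) had its lowest value there, as did 36% of kept genes. The inputs show where the RIPs went against each other. For Ftl1, Fth1, Hmox1 and Mt1 the MKRN1 RIP was above its input while both control RIPs were below theirs, a pattern held by 7.91% of kept genes. In the FLAG:Ctrl RIP the difference from input was -0.61 for Ftl1, -0.33 for Fth1, -0.22 for Hmox1 and -0.08 for Mt1. In the IgG RIP it was -0.80 for Ftl1, -0.24 for Fth1, -0.36 for Hmox1 and -0.01 for Mt1, the last of which is level with its input and was above it by 0.06 after centring on all probe sets. For Gclm the signs ran the other way, with the MKRN1 RIP 0.22 below its input, the FLAG:Ctrl RIP 0.25 above and the IgG RIP 0.38 above. The anti-FLAG RIP thus lay on opposite sides of its own input in the FLAG:MKRN1 and FLAG:Ctrl lysates for 5 of the 10 members, as it did for 40.4% of kept genes. Prdx1, Txnrd1, Mt2 and Nqo1 were above input in all 3 RIPs, as were 20.3% of kept genes. Prdx1 in the FLAG:Ctrl RIP was not after centring on the kept genes or removing the trend, and Nqo1 had 0.07, 0.04 and 0.33 in the MKRN1, FLAG:Ctrl and IgG RIPs, with a sign change in at least 1 RIP under each of the 4 rescalings.

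No member reached 2-fold between a RIP and its own input. Among kept genes, 2.47% were higher and 5.51% lower in the MKRN1 RIP than in its input, 0.948% and 0.374% in the FLAG:Ctrl RIP, and 1.32% and 0.461% in the IgG RIP. Nor did any member differ 2-fold between the inputs, where 0.878% of kept genes were higher and 0.791% lower in FLAG:MKRN1. The members' input differences, FLAG:MKRN1 less FLAG:Ctrl, ran from -0.33 (Nqo1) to 0.36 (Hmox1). Hmox1, Gclm, Ftl1, Mt1, Mt2 and Prdx1 were higher in the FLAG:MKRN1 input and Nqo1, Txnrd1, Srxn1 and Fth1 lower, so the members were split in direction between the inputs.

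**Figure D4:**
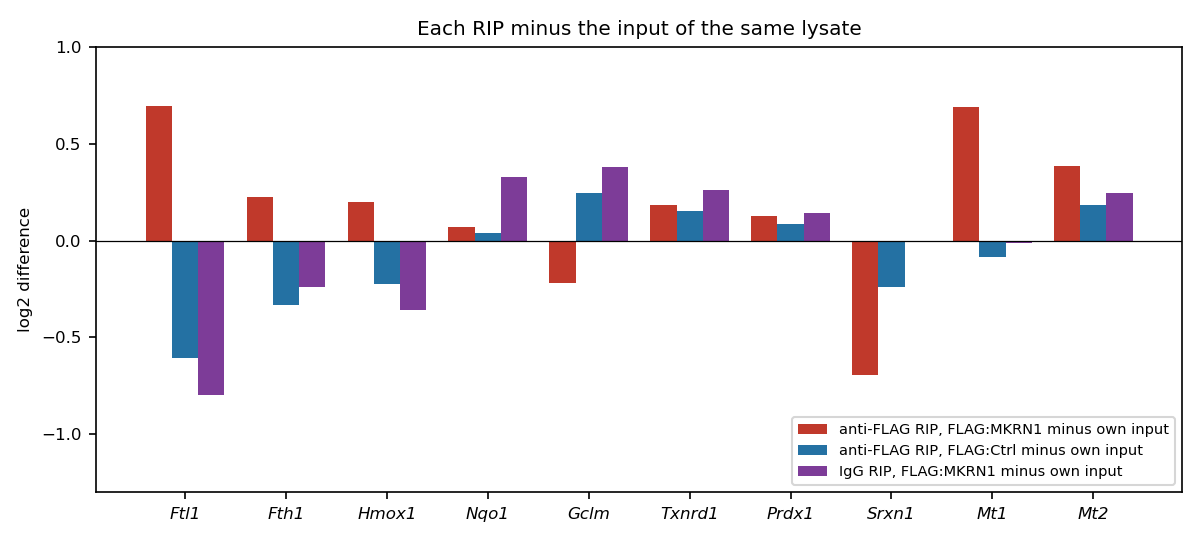
Log2 difference of each RIP from the input of the same lysate for the 10 genes; bars start at 0 and each stands for 1 pair of arrays. The MKRN1 RIP bars of Ftl1 (0.70) and Mt1 (0.69) stand highest, the control RIP bars of Ftl1 (-0.61 and -0.80) are the deepest of the control bars, and the IgG bar of Srxn1 is at 0.

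The deposited values hold exact ties between arrays, which affect how the members can be read. Of the members, 5 had equal values (within 1e-06) on at least 1 pair of arrays, as did 52.8% of kept genes. Srxn1 had 3 such pairs, among the FLAG:Ctrl RIP, the IgG RIP and the FLAG:MKRN1 input. Hmox1 and Nqo1 each had 1, between the IgG RIP and the FLAG:Ctrl input. Gclm and Mt2 each had 1, between the FLAG:Ctrl RIP and the FLAG:MKRN1 input. Ftl1, Fth1, Txnrd1, Prdx1 and Mt1 had none. Mt3 also had equal values, as did Mafg, Ncoa4, Fbxl5 and Slc30a5 among the genes of related lists named below. A difference of 0.00 in these genes is therefore a tie in the deposited table, and its cause was not tested.

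Of the 5 members highest in the MKRN1 RIP, 4 were genes with a span under 5000 bases, as were 24% of the 3764 kept genes highest there and 10.8% of the 7733 highest on another array. The span of the gene in the RefSeq table, introns included, was 950 bases for Mt2, 1445 for Mt1, 1943 for Ftl1, 4512 for Fth1 and 6976 for Hmox1, the fifth of them. Among the other members it was 5853 for Srxn1, which had the lowest difference, 14402 for Prdx1, 14981 for Nqo1, 21729 for Gclm and 63774 for Txnrd1. Among the 579 kept genes with a span under 2000 bases, the median difference was 0.28 relative to the FLAG:Ctrl RIP and 0.24 relative to the IgG RIP, and 9.33% were called higher and 3.45% lower than both control RIPs. Among the 2855 kept genes spanning 50000 bases or more, the medians were -0.25 and -0.22, with 0.175% called higher and 9.77% lower. Over 11497 kept genes Spearman's correlation of span with the difference was -0.32 relative to the FLAG:Ctrl RIP and -0.31 relative to the IgG RIP, a description across genes of the same arrays. Ftl1 was therefore 1 of 54 genes called higher among those under 2000 bases. The part of gene or transcript length in the members' differences was not tested.

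The 5 kept genes whose values over the 5 arrays, each less its mean, lay nearest to those of Ftl1 by Euclidean distance were Olfr1347 (distance 0.16), Tmem41b (0.32), Clps (0.36), Nccrp1 (0.39) and Mir30d (0.42). Olfr1347 is an olfactory receptor gene, Tmem41b encodes an endoplasmic reticulum membrane protein, Clps encodes pancreatic colipase, and Mir30d is a microRNA gene. Tmem41b had 10.52 in the MKRN1 RIP, 9.05 in the FLAG:Ctrl RIP, 9.40 in the IgG RIP, 9.84 in the input of FLAG:MKRN1 cells and 9.57 in that of FLAG:Ctrl cells. Neither Fth1 nor another member was among them. All but Nccrp1 were called higher than both control RIPs.

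Beyond the members, 100 genes of related pathways were listed in 8 groups, of which 95 were measured and 87 kept. By the rule on both control RIPs and the input 1 of the 87 was higher (Txn2) and 5 were lower (Prdx3, Ccs, Ncoa4, Tfrc and Slc39a10), against 1.09% and 5.36% of kept genes. Gpx2 was also 2-fold above both control RIPs but below its input, and without the input condition 1.1% of kept genes were higher and 5.41% lower. Their median difference was -0.18 relative to the FLAG:Ctrl RIP and -0.07 relative to the IgG RIP.

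The iron handling list holds genes of iron uptake, export, sensing and ferritin turnover, and 2 of its 14 kept genes were lower and none higher. Ncoa4, the receptor that delivers ferritin to autophagosomes, had 7.49 in the MKRN1 RIP, against 9.29 in the FLAG:Ctrl RIP and 9.25 in the IgG RIP, with 9.25 in the input of FLAG:MKRN1 cells and 9.28 in that of FLAG:Ctrl cells. Only the MKRN1 RIP differed, by -1.81 and -1.76 against the FLAG:Ctrl and IgG RIPs, which is the opposite direction to Ftl1. Tfrc, the transferrin receptor, whose messenger RNA also carries iron-responsive elements, had 9.23 in the MKRN1 RIP, 10.34 in the FLAG:Ctrl RIP, 10.49 in the IgG RIP, 10.52 in the input of FLAG:MKRN1 cells and 10.45 in that of FLAG:Ctrl cells. Its differences, -1.11 and -1.25, fell short of the rule after centring on the kept genes (-0.95), quantile normalization (-0.85) and removal of the trend (-0.79). The iron regulatory protein gene Ireb2 had -0.66 and -0.67 and Fbxl5, the iron-sensing ubiquitin ligase subunit, -0.65 against each control RIP. The list's median was -0.29 relative to the FLAG:Ctrl RIP and -0.01 relative to the IgG RIP.

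Among 10 regulators of NRF2, none was called against both control RIPs, with list medians of 0.10 and -0.02. Nfe2l2, which encodes NRF2, had 8.66 in the MKRN1 RIP, 9.57 in the FLAG:Ctrl RIP, 9.71 in the IgG RIP, 9.57 in the input of FLAG:MKRN1 cells and 9.46 in that of FLAG:Ctrl cells. Its differences were -0.90 and -1.04, past the rule only after centring on all probe sets. Keap1, its inhibitor, had differences of 0.33 and 0.54, Mafg, its small MAF partner, 0.30 against each, and Cul3, the ligase scaffold for KEAP1, -0.35 and -0.36.

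Thioredoxin and peroxiredoxin enzymes held 1 gene called in each direction among 12 kept, with medians of -0.11 and -0.00. Txn2, the mitochondrial thioredoxin, had 11.08 in the MKRN1 RIP, 10.04 in the FLAG:Ctrl RIP, 9.81 in the IgG RIP, 9.59 in the input of FLAG:MKRN1 cells and 9.66 in that of FLAG:Ctrl cells. It was 1.04 and 1.27 above the FLAG:Ctrl and IgG RIPs, and 0.83 above the FLAG:Ctrl RIP after centring on all probe sets, short of 2-fold. Prdx3, the mitochondrial peroxiredoxin, had 7.12 in the MKRN1 RIP, 8.83 in the FLAG:Ctrl RIP, 8.92 in the IgG RIP, 8.26 in the input of FLAG:MKRN1 cells and 8.61 in that of FLAG:Ctrl cells. Both belong to the mitochondrial thioredoxin and peroxiredoxin system, and they lay on opposite sides of the control RIPs. The methionine sulfoxide reductase gene Msra had differences of 0.60 and 0.66 and Sesn1 -0.56 and -0.74.

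Of 19 kept glutathione enzymes none was called by the rule on both control RIPs and the input, with medians of 0.00 and -0.10. Gpx2, a glutathione peroxidase of the gut epithelium, had 8.05 in the MKRN1 RIP, 6.57 in the FLAG:Ctrl RIP, 7.01 in the IgG RIP, 8.66 in the input of FLAG:MKRN1 cells and 7.15 in that of FLAG:Ctrl cells. It was 1.48 and 1.04 above the FLAG:Ctrl and IgG RIPs, past 2-fold against both, but was not called because it lay below its own input, and the inputs differed in the same direction by 1.51. Gpx1, the widely expressed cytosolic peroxidase, had differences of -1.45 and -0.88, Gpx4, which reduces lipid peroxides, 0.51 and 0.70, and Gstp1 -0.49 and -0.70. Relative to its own input Gpx1 had -0.07 in the MKRN1 RIP, 0.83 in the FLAG:Ctrl RIP and 0.81 in the IgG RIP. By the rule Gpx1 was called lower after centring on all probe sets.

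The 5 kept superoxide and peroxide enzymes all had a lower value in the MKRN1 RIP than in both control RIPs, also under the 4 rescalings, as did 44.4% of kept genes by the deposited values. Their medians were -0.45 and -0.39, and 1 passed the 2-fold rule. Relative to the input 4 of the 5 were lower, and Park7 was level with it at 0.00. Ccs, the copper chaperone for superoxide dismutase, had 7.24 in the MKRN1 RIP, 8.65 in the FLAG:Ctrl RIP, 8.42 in the IgG RIP, 7.87 in the input of FLAG:MKRN1 cells and 8.42 in that of FLAG:Ctrl cells. Sod2, Park7 and Cat had differences between -0.48 and -0.33 against the FLAG:Ctrl RIP. Of the 7 kept NADPH enzymes none was called, with medians of -0.57 and -0.46. Me1 had -0.81 and -0.70, Idh1 -0.73 and -0.72 and Nnt -0.70 and -0.98, while Taldo1, of the pentose phosphate pathway, had 0.66 and 0.70.

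None of the 12 kept heme genes was called, and the list's medians were -0.09 and -0.05. Alas1, which starts heme synthesis, had -0.69 and -0.50, Abcb6 -0.53 and -0.35, Alad -0.23 and -0.19, and Fech, which inserts iron into heme, 0.22 and 0.23, with the sign of Alad turning under quantile normalization (0.01) and once the trend was removed (0.05). In the metal response list 1 of 8 kept genes was called, Slc39a10, a zinc importer, which had 7.80 in the MKRN1 RIP, 9.42 in the FLAG:Ctrl RIP, 9.46 in the IgG RIP, 9.71 in the input of FLAG:MKRN1 cells and 9.88 in that of FLAG:Ctrl cells. It lay 1.62 and 1.66 below the FLAG:Ctrl and IgG RIPs, opposite to the metallothioneins Mt1, Mt3 and Mt4 in the same list or among the members. The zinc transporter gene Slc30a5 had -0.72 against each control RIP, and the list's medians were 0.02 and 0.05.

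**Figure D5:**
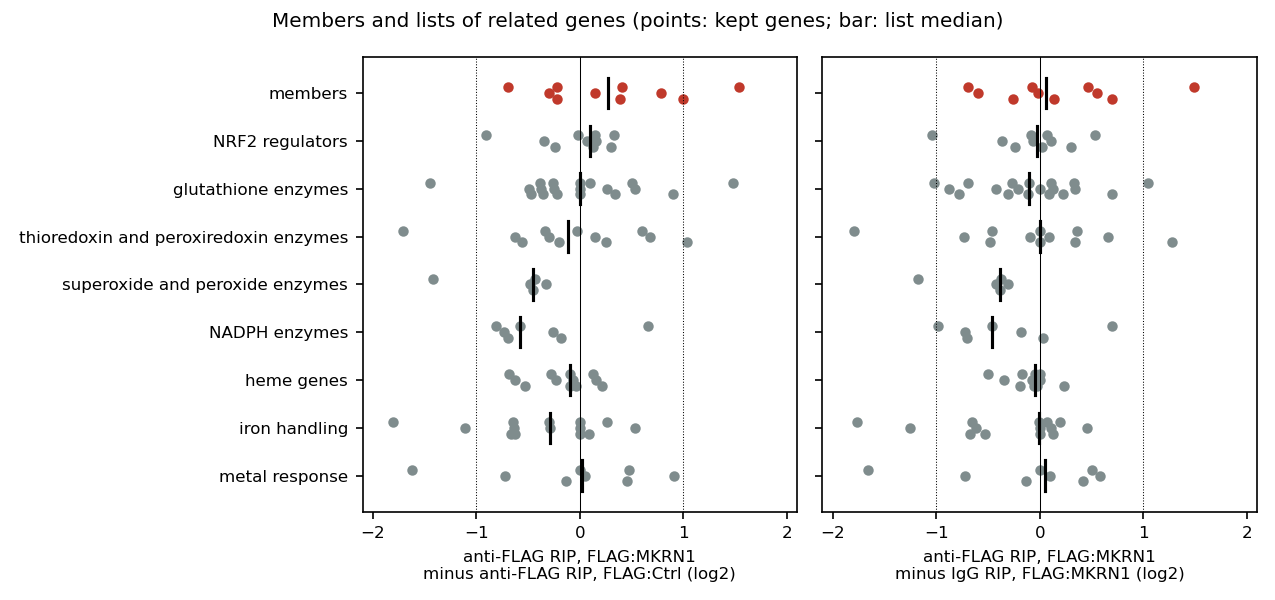
Log2 difference of the MKRN1 RIP from the FLAG:Ctrl RIP (left) and the IgG RIP (right) for the members (red) and 8 lists of related genes (grey), 1 point per kept gene, with a bar at each list's median and dotted lines at 2-fold. The member median (0.27 on the left) is the highest bar there and the NADPH enzymes (-0.57) the lowest.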

How the data were processed

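The authors deposited log2 signals of every probe set on the 5 arrays, with the scale read from the values (2.56 to 14.4). Per the labels' protocols, cDNA was made from 10 ng of RNA and labelled with biotin. How background was corrected and values were normalized is not given in the sources used here; reported values were not rescaled. In the platform annotation 21640 of the 34760 probe sets had 1 gene symbol, 1321 several and 11799 none, and 21553 matched RefSeq GRCm38.p6 gene identifiers. Each gene took the probe set with the highest mean. With 1 array per group only differences were computed, with no test and no p-value. The calling rule was tested on simulated data, and no error rate for these arrays is drawn from that. Members, lists and the naming rule (all members, up to 4 genes per list with the largest difference from the nearer control RIP, and the 5 genes nearest to Ftl1) were chosen with earlier results of these data known. Precision is limited by the number of arrays, since signal has no read depth. Python 3.11.15, pandas 2.3.3, NumPy 2.4.6, statsmodels 0.14.6 and matplotlib 3.10.9 were used.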

Additional observations from a re-analysis of the deposited data

Results flagged for a closer look

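For 5 of the 10 members the anti-FLAG RIP lay on opposite sides of its own input in FLAG:MKRN1 and FLAG:Ctrl lysate, as it did for 40.4% of kept genes. Each value is a log2 difference of the RIP from the input between 1 pair of arrays, and the differences between lysates were not tested. For Ftl1 it was 0.70 in FLAG:MKRN1 and -0.61 in FLAG:Ctrl lysate. For Fth1 it was 0.22 in FLAG:MKRN1 and -0.33 in FLAG:Ctrl lysate, and for Hmox1 0.20 in FLAG:MKRN1 and -0.22 in FLAG:Ctrl lysate. For Mt1 it was 0.69 in FLAG:MKRN1 and -0.08 in FLAG:Ctrl lysate. Gclm ran the other way, with -0.22 in FLAG:MKRN1 and 0.25 in FLAG:Ctrl lysate. These signs held under each of the 8 alternatives run for these genes, and under 12 for Ftl1. The spread of the difference between the control RIPs over all kept genes, an SD of 0.243, is of the size of several of these values.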

How the results depend on the processing

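No paired analysis was possible because each group holds 1 array. The 2-fold call of Ftl1 against both control RIPs held after centring on all probe sets, quantile normalization and removal of the signal-level trend. It also held after centring on the kept genes, an alternative chosen after seeing the data. Leaving out the input, other filters that kept Ftl1 and the median over probe sets of 1 symbol could not undo it. Ftl1 has 1 such probe set, so its values there were the same and so was the call. It was lost when Ftl1 was read from any of the 3 shared probe sets or as the median of the 4, also chosen after seeing the data: members called were then 0 against the FLAG:Ctrl RIP, the IgG RIP, both, and with inputs taken off, and also 0 in these at 4-fold. Members called, all higher, against the FLAG:Ctrl RIP numbered 3 after quantile normalization or removal of the trend and 2 after centring on the kept genes. At 1.5-fold they numbered 4 against the FLAG:Ctrl RIP (3 higher, 1 lower), 4 against the IgG RIP (2 higher, 2 lower), 3 against the input and 3 against both (2 higher, 1 lower in each), 2 with inputs taken off (both higher), and 1, lower, for each control RIP against its input. The lower calls of the MKRN1 RIP were Srxn1 in each of these and Gclm against the IgG RIP. The members' median moved to 0.063 (FLAG:Ctrl RIP), -0.11 (IgG RIP) and -0.067 (inputs taken off) after centring on all probe sets, to 0.24 (IgG RIP) and 0.295 (inputs taken off) without the trend, and to 0.302 (IgG RIP) and 0.315 (inputs taken off) under the stricter filter, the 75th percentile of probe-set means, which left 8 members. In the order MKRN1 RIP against the FLAG:Ctrl RIP, the IgG RIP, its input and both controls, and with inputs taken off, kept genes called were 1004, 974, 918, 742 and 1219, then 2920, 2797, 2708, 2202 and 3399 at 1.5-fold and 66, 51, 68, 39 and 82 at 4-fold. Between the inputs, then for either control RIP (FLAG:Ctrl, IgG) against its input, they were 192, 152 and 205, then 859, 888 and 1020 at 1.5-fold, 16, 7 and 8 at 4-fold and 82, 85 and 119 under the stricter filter. The share of higher calls with inputs taken off was 23.6%, and 9.72%, 40%, 35.9% and 33.3% after centring on all probe sets, on the kept genes, quantile normalization and removal of the trend. Against the input it was 30.9% for the MKRN1 RIP (20.6% after centring on all probe sets), 71.7% for the FLAG:Ctrl RIP (83.7%, and 54% centred on the kept genes) and 74.1% for the IgG RIP (58.7% centred on the kept genes). Of single member values, 502 moved by less than 0.172, the SD between control RIPs per array, or stayed called, 55 moved by more, 5 newly reached 2-fold and 12, all of Ftl1, no longer did. The cause of these shifts was not tested. The 502 include values under settings that cannot move them, such as filters, or the median over probe sets for genes with 1 probe set. One array per group sets the limit on what any of these differences can show.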
